A study of Homo sapiens with 9 samples.

Results

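The clustered protocadherins are cell-surface adhesion proteins encoded by the alpha, beta and gamma gene clusters on chromosome 5. Members were taken by symbol, as protein-coding genes named PCDHA, PCDHB, PCDHGA, PCDHGB or PCDHGC, and 53 of the 60648 genes counted met this rule: 15 alpha, 16 beta and 22 gamma genes. RNA was sequenced in HEK293-derived cells, a human embryonic kidney line, in order to find the genes that respond to a circular RNA of the spinal muscular atrophy genes SMN1 and SMN2. TC4-2A cells carried an inducible insertion that gives the circRNA of exons 2A, 2B, 3 and 4, TL4-2A cells carried one that gives the linear RNA of the same exons, and the parental T-REx cells carried no insertion. The paper also detected linear RNA of these exons in TC4-2A cells, as a precursor of the circRNA. TC4-2A against TL4-2A cells is therefore not a comparison of circular with linear RNA alone. All 3 lines received doxycycline (Dox) for 96 h, and 3 libraries of each line were sequenced. Whether a line is 1 clone, and whether its 3 libraries came from separate cultures, is not given in the sources used here, so that p-values speak only for the spread among the libraries at hand, and a difference between inserted RNAs cannot be told apart from a difference between lines.

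In vertebrate neurons the clustered protocadherins give each cell a combination of surface proteins, and contacts between identical combinations let a neuron tell its own branches from those of its neighbours. Each alpha and gamma gene begins with a large variable exon of its own, which has its own promoter and encodes the extracellular cadherin repeats, and is spliced to constant exons shared by the whole cluster that encode the common cytoplasmic end, while each beta gene is a single-exon gene. Promoters are chosen in part at random, with the insulator protein CTCF, cohesin and DNA methylation taking part, whereas the C-type members at the end of the alpha and gamma clusters are expressed more uniformly among neurons. Most of these promoters hold a conserved sequence element with the core CGCT, near which CTCF binds.

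The locus lay on the + strand of chromosome 5 of GRCh38, with the alpha cluster from 140786136 to 141012347, the beta cluster from 141051374 to 141249365 and the gamma cluster from 141330514 to 141512977. Since all alpha members share their last exons, as do all gamma members, reads that fall only there cannot be given to 1 member, and the exonic bases of a member that no other gene on the same strand shares ("own" bases) made up 53.4% of the exonic bases in the median alpha gene and 56.2% in the median gamma gene, against 100% in the median beta gene. Values are counts scaled to a common library size (CPM) by the TMM method of edgeR, and levels of different genes are compared only as CPM per kb of own exon.

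Promoter sequences, from 250 bases before to 50 bases after the RefSeq start of each gene (GRCh38.p14), were found for 47 of the 53 members, and 6 had no entry (PCDHA3, PCDHA13, PCDHB6, PCDHB11, PCDHGA12 and PCDHGC5). The 30 bases around the CGCT core, in capitals, are shown for members whose values are described below, because the letters before the core differed by cluster.
PCDHA10 (chr5:140855839-140855868, + strand): cctaaagccaccggatgtCGCTgtcgtcca
PCDHA12 (chr5:140875242-140875271, + strand): taatcagtcacatgatgtCGCTctacactc
PCDHB2 (chr5:141094542-141094571, + strand): ggaagagacgcggggtggCGCTgcagcctt
PCDHB5 (chr5:141135177-141135206, + strand): aattaggacgcctggtggCGCTgcaggcta
PCDHB13 (chr5:141213863-141213892, + strand): tgtgaggacgcgtggtggCGCTgcaggata
PCDHGA6 (chr5:141373833-141373862, + strand): agttaggactctaagcgtCGCTgttgacca
PCDHGB5 (chr5:141397861-141397890, + strand): agtgctgactctgggcgcCGCTgttggcca
PCDHGB6 (chr5:141407922-141407951, + strand): cacggagcctctgggcgcCGCTgtcggcca
PCDHGC3 (chr5:141475878-141475907, + strand): ggctgggactctgtgtgcCGCTgtcggcca
The core began between 11 bases (PCDHB5) and 81 bases (PCDHGB6) before the annotated start in these 9 genes. Motifs were looked for on both strands, and the letters were chosen after the promoters of the members had been read, so the counts are a description. GATGTCGCT was found in 9 of 13 alpha promoters and in 0 of 14 beta and 0 of 20 gamma promoters, and it was in 0.105% of the 35116 promoters of all genes. GGTGGCGCT was found in 13 of 14 beta promoters and in 0.501% of all promoters, and it was in 0 alpha and 0 gamma promoters. GNGNCGCTG, which can overlap the beta motif, was found in 18 of 20 gamma and 12 of 14 beta promoters, and in 10.2% of all promoters. The 4 letters CGCT alone were in 70.0% of all promoters. PCDHA1, PCDHA2, PCDHA4, PCDHA5, PCDHA6, PCDHA7 and PCDHA8 held the same alpha motif as PCDHA10 and PCDHA12, yet no library gave more than 5 counts for any of them. PCDHA9, PCDHA11, PCDHAC1 and PCDHAC2 had promoter entries without this motif. Of these, PCDHA9 had at most 3 counts per library, against 15 to 57 for PCDHA11, 17 to 52 for PCDHAC1 and 11 to 32 for PCDHAC2.

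Libraries held 16561680 to 21491977 counts, and 19473 genes passed the expression filter of edgeR. The 7 genes of a HEK293 marker list, such as VIM and NEFL, were all tested, with summed levels of 679 to 706 CPM in TC4-2A, 736 to 755 CPM in TL4-2A and 882 to 918 CPM in T-REx libraries. The 6 blood and immune markers together stayed under 1 CPM in every library, with HBB at 0 in all 9. Of 6 markers of mature neurons 4 were tested, and the list summed to 32.8 to 36.1 CPM in TC4-2A, 39.1 to 44 CPM in TL4-2A and 30.9 to 32.5 CPM in T-REx libraries. None of the 6 was at 0 throughout, and the part of these marker lists in the results on protocadherins was not tested. In RNA from whole cultures, fewer cells that express a gene and less of its RNA per cell cannot be told apart.

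All 53 members had at least 1 count in some library, but 28 passed the filter: 6 of 15 alpha, 3 of 16 beta and 19 of 22 gamma members. PCDHA1 to PCDHA9, the alpha genes farthest from the constant exons, had at most 5 counts in any library, and 8 of these 9 had at most 3. Expression in the alpha cluster thus came from the last 6 genes, PCDHA10 to PCDHA13 and the C-type genes PCDHAC1 and PCDHAC2. Among beta genes, which lack constant exons, 10 of 16 stayed under 10 counts in every library and PCDHB2 alone went above 15, with a highest count of 91. In the gamma cluster 7 members reached 100 counts in at least 1 library, and PCDHGA2, PCDHGA3 and PCDHGB4 were the members that did not pass the filter, with at most 15 counts.

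**Figure D1:**
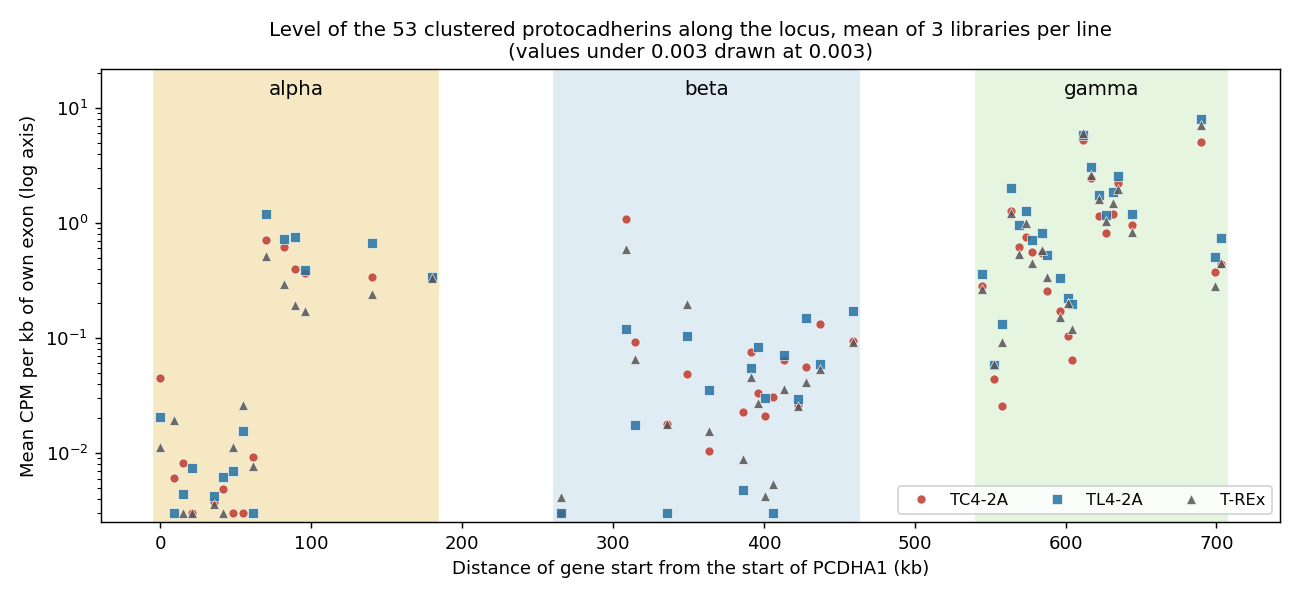
Mean CPM per kb of own exon (log axis, 3 libraries per line) of the 53 members against the distance in kb of each gene's start from that of PCDHA1, with TC4-2A as circles, TL4-2A as squares and T-REx as triangles. The first 9 alpha genes lie below the last 6 in each line. Most gamma genes lie above most beta genes, while PCDHGA2, PCDHGA3, PCDHGB4 and PCDHGA8 lie among them in TC4-2A cells. PCDHGC3 and PCDHGB5 stand highest in each line.

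Per kb of own exon, PCDHGC3 and PCDHGB5 were the highest members in every line. PCDHGC3, a C-type gamma gene, stood at 5.02 CPM per kb in TC4-2A, 7.96 in TL4-2A and 7.16 in T-REx cells. PCDHGB5, a gamma gene of the B subfamily, stood at 5.27 CPM per kb in TC4-2A, 5.79 in TL4-2A and 6.11 in T-REx cells. PCDHGA9, of the A subfamily, came next in each line, with 2.46 CPM per kb in TC4-2A, 3.06 in TL4-2A and 2.6 in T-REx cells. The leading alpha gene, PCDHA10, had 0.711 CPM per kb in TC4-2A, 1.18 in TL4-2A and 0.512 in T-REx cells, so it lay well below the leading gamma genes. PCDHA10 has 10355 own bases over all its annotated isoforms, against 2572 to 4147 for the other alpha members tested, and a value per kb depends on these lengths. Among beta genes PCDHB2 led in TC4-2A cells (1.08 CPM per kb) and in T-REx cells (0.595), while in TL4-2A cells PCDHB15, which did not pass the filter, led with 0.172 and PCDHB2 had 0.119.

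Summed over members, the alpha cluster had 14.1, 14.4 and 14.1 CPM in TC4-2A libraries and 21.0, 22.1 and 22.2 CPM in TL4-2A libraries, against 9.70, 10.1 and 8.87 CPM in T-REx libraries. The alpha sums of the lines did not overlap, and the means were 1.48 times in TC4-2A and 2.28 times in TL4-2A cells that of T-REx cells. The beta members together had 6.64, 7.03 and 7.74 CPM in TC4-2A libraries and 4.0, 3.42 and 3.47 CPM in TL4-2A libraries, against 4.24, 4.63 and 5.48 CPM in T-REx libraries. Here TC4-2A libraries were the highest and TL4-2A libraries the lowest, and the order rested on PCDHB2, because without it the cluster averaged 2.72 ± 0.384 CPM in TC4-2A, 3.14 ± 0.266 CPM in TL4-2A and 2.34 ± 0.251 CPM in T-REx cells (SD, n = 3 each). The gamma members together had 75.7, 76.7 and 78.5 CPM in TC4-2A libraries and 106, 108 and 111 CPM in TL4-2A libraries, against 92.3, 85.6 and 92.4 CPM in T-REx libraries. The gamma sums did not overlap either, at 0.855 times the T-REx mean in TC4-2A and 1.20 times in TL4-2A cells. These sums are given as descriptions, with no test.

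**Figure D2:**
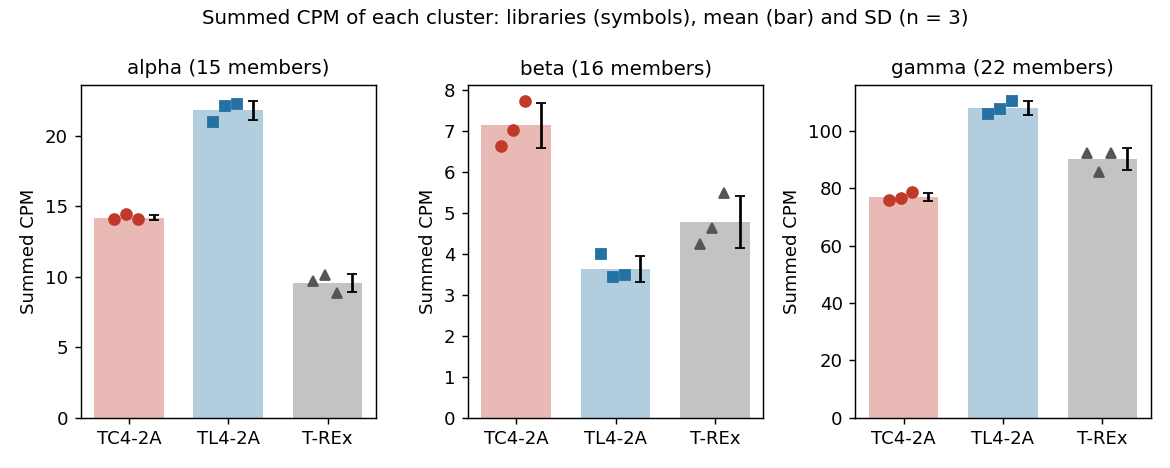
Summed CPM of the alpha, beta and gamma clusters (linear axes from 0), with each library as a symbol, the mean as a bar and the SD as an error bar (n = 3 libraries each) for each line. TL4-2A libraries are the highest for the alpha and gamma clusters and the lowest for the beta cluster.

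In TC4-2A against T-REx cells 9 of the 28 members tested were called at an adjusted p under 0.05 by edgeR's quasi-likelihood test, 5 higher and 4 lower, which is 32.1% of them, against 28.8% of all genes tested (14.2% higher and 14.6% lower). The share was thus close to that of all genes. By cluster, 4 of 6 alpha members (66.7%), 2 of 3 beta members (66.7%) and 3 of 19 gamma members (15.8%) were called. The 5 higher members were PCDHA10, PCDHA11, PCDHA12, PCDHA13 and PCDHB2, and the 4 lower were PCDHB5, PCDHGC3, PCDHGB5 and PCDHGB6, so that alpha members had 4 calls higher and 0 lower and gamma members 0 higher and 3 lower. The gamma share was near the 14.6% of all genes called lower, and the calls of PCDHGB5 and PCDHGB6 were lost under some alternatives. The median log2 fold change was 0.76 over the 6 alpha, 0.48 over the 3 beta and -0.08 over the 19 gamma members, against 0.00 over all genes. Called members had a median size of change of 0.86 on the log2 scale, against 0.25 for all genes called. These medians were not matched for level, and at low counts only larger changes are called. The SE was 0.31 for PCDHA12, 0.36 for PCDHA13 and 0.47 for PCDHB5.

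In TL4-2A against T-REx cells 17 of the 28 members (60.7%) were called, 16 higher and 1 lower, against 44.3% of all genes (21.9% higher and 22.5% lower). The 16 higher members were 5 alpha, 1 beta and 10 gamma genes, and PCDHB2 was the 1 lower. Of the 28 members 25 had a positive log2 fold change, and the median was 0.57, against 0.00 over all genes. By cluster the median was 1.26 for the 6 alpha, -0.93 for the 3 beta and 0.50 for the 19 gamma members. The T-REx libraries are shared by both comparisons, which are therefore not independent of each other.

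Between the 2 lines with an insertion, TC4-2A against TL4-2A, 17 of 28 members (60.7%) were called, 1 higher and 16 lower, against 35.4% of all genes (17.6% higher and 17.8% lower). All 19 gamma members had a negative log2 fold change and 12 were called lower, with a median of -0.60. Of the alpha members 3 were called lower, and PCDHB2 was the 1 member called higher.

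**Figure D3:**
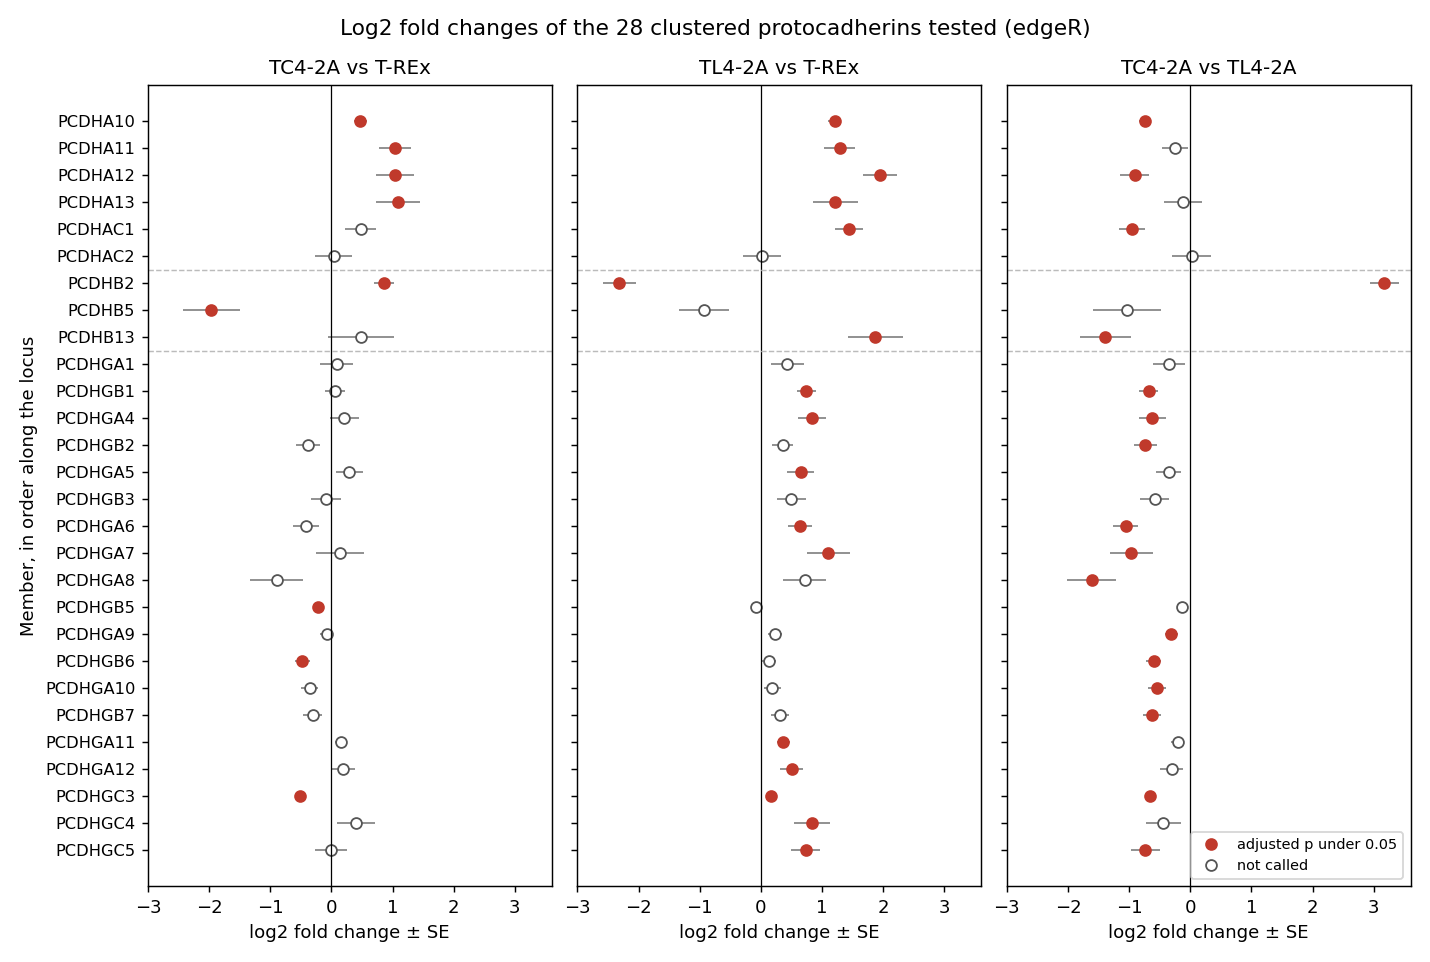
Log2 fold change with its standard error (edgeR) for the 28 members tested, in their order along the locus, for TC4-2A vs T-REx, TL4-2A vs T-REx and TC4-2A vs TL4-2A, with filled symbols for an adjusted p under 0.05 and dashed lines between the alpha, beta and gamma clusters. The alpha genes lie at or right of 0 in both comparisons with T-REx cells, all 19 gamma genes lie left of 0 in the comparison of TC4-2A with TL4-2A cells, and PCDHB2 lies right, left and right of 0 in turn.

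Among the alpha members the 4 that neighbour each other from PCDHA10 to PCDHA13 were called higher in both lines with an insertion. PCDHA10 (ENSG00000250120.8, from 140855883 to 141012347) gave 7.54, 7.08 and 7.47 CPM in TC4-2A and 11.2, 12.2 and 13.3 CPM in TL4-2A libraries, against 5.30, 5.38 and 5.22 CPM in T-REx libraries. No library of one line fell into the range of another. Its log2 fold change was 0.47 (SE 0.11, edgeR adjusted p = 0.0010) in TC4-2A and 1.21 (SE 0.10, edgeR adjusted p = 3.5e-12) in TL4-2A cells, and TC4-2A against TL4-2A cells differed by -0.74 (SE 0.10, edgeR adjusted p = 9.7e-08). PCDHA10 made up 51.9% of the alpha sum in TC4-2A, 56.2% in TL4-2A and 55.5% in T-REx cells, so its share moved little while the sum changed. Without PCDHA10 the remaining alpha genes still averaged 6.84 ± 0.454 CPM in TC4-2A and 9.53 ± 0.552 CPM in TL4-2A cells, against 4.28 ± 0.571 CPM in T-REx cells (SD, n = 3 each).

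PCDHA12 (ENSG00000251664.5), like its neighbours a variable-exon gene, was low but well separated between lines. It gave 0.949, 1.14 and 1.02 CPM in TC4-2A and 1.94, 2.03 and 1.89 CPM in TL4-2A libraries, against 0.424, 0.510 and 0.574 CPM in T-REx libraries. The order of the lines was that of PCDHA10. Its log2 fold changes were 1.04 (SE 0.31, edgeR adjusted p = 0.0099) in TC4-2A and 1.94 (SE 0.28, edgeR adjusted p = 4.2e-07) in TL4-2A cells, with -0.91 between them (SE 0.24, edgeR adjusted p = 0.0027). These rest on 19 to 24 counts per TC4-2A, 31 to 38 per TL4-2A and 8 to 11 per T-REx library.

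PCDHA11 (ENSG00000249158.7) averaged 2.07 ± 0.258 CPM in TC4-2A and 2.45 ± 0.769 CPM in TL4-2A cells, against 0.996 ± 0.237 CPM in T-REx cells (SD, n = 3 each). On the log2 scale this was 1.04 (SE 0.26, edgeR adjusted p = 0.0017) in TC4-2A and 1.29 (SE 0.25, edgeR adjusted p = 6.5e-05) in TL4-2A cells, and TC4-2A and TL4-2A libraries overlapped. PCDHA13 (ENSG00000239389.8) averaged 0.947 ± 0.215 CPM in TC4-2A and 1.01 ± 0.334 CPM in TL4-2A cells, against 0.438 ± 0.136 CPM in T-REx cells (SD, n = 3 each), with log2 fold changes of 1.10 and 1.22. Its calls were the least firm of the 4 genes. The TC4-2A call (edgeR adjusted p = 0.019) was lost without T-REx replicate 2 (0.064), T-REx replicate 3 (0.097) or TC4-2A replicate 3 (0.10) and with DESeq2 (0.080), and the TL4-2A call (edgeR adjusted p = 0.0059) was lost without TL4-2A replicate 2 (0.073).

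The C-type alpha genes, which are used more uniformly in neurons than their neighbours, behaved differently from each other in the values here. PCDHAC1 (ENSG00000248383.5) gave 1.5, 1.42 and 1.29 CPM in TC4-2A and 3.15, 2.25 and 2.86 CPM in TL4-2A libraries, against 0.954, 1.16 and 0.887 CPM in T-REx libraries. TL4-2A libraries stood apart, with a log2 fold change of 1.44 against T-REx cells (SE 0.23, edgeR adjusted p = 2.4e-06), and TC4-2A against TL4-2A cells gave -0.96 (SE 0.21, edgeR adjusted p = 4.2e-04). In TC4-2A cells it was not called, at 0.48 (SE 0.25, edgeR adjusted p = 0.16), although every TC4-2A library lay above every T-REx library. PCDHAC2 (ENSG00000243232.6) averaged 1.11 ± 0.387 CPM in TC4-2A, 1.11 ± 0.536 CPM in TL4-2A and 1.09 ± 0.227 CPM in T-REx cells (SD, n = 3 each), with overlapping libraries and log2 fold changes of 0.04 and 0.02 against T-REx cells (SE 0.31 and 0.32). It was the 1 alpha gene tested that was called in no comparison.

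**Figure D4:**
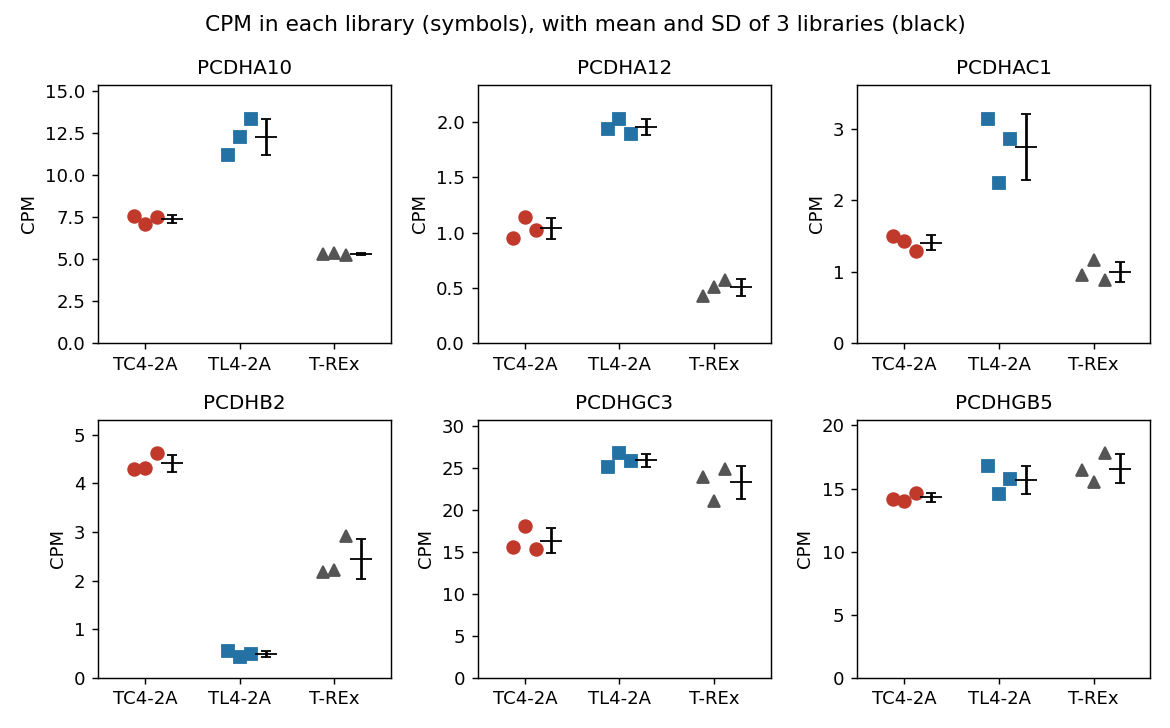
CPM in each library for PCDHA10, PCDHA12, PCDHAC1, PCDHB2, PCDHGC3 and PCDHGB5 (linear axes from 0), with TC4-2A at the left, TL4-2A in the middle and T-REx at the right and the mean ± SD of 3 libraries in black. TL4-2A cells are the highest for the 3 alpha genes and the lowest for PCDHB2, and TC4-2A cells are the lowest for PCDHGC3.

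Of the beta genes, PCDHB2 (ENSG00000112852.7, from 141094606 to 141098703) was called in opposite directions in the 2 lines with an insertion. It gave 4.30, 4.32 and 4.62 CPM in TC4-2A and 0.545, 0.428 and 0.488 CPM in TL4-2A libraries, against 2.17, 2.22 and 2.92 CPM in T-REx libraries. The 3 lines formed separate groups, with 86 to 91 counts per TC4-2A, 8 to 9 per TL4-2A and 41 to 56 per T-REx library. The log2 fold change was 0.86 in TC4-2A cells (SE 0.16, edgeR adjusted p = 7.4e-05), which is 1.81-fold, and -2.31 in TL4-2A cells (SE 0.27, edgeR adjusted p = 5.7e-09), which is 0.201 times the T-REx level. TC4-2A against TL4-2A cells differed by 3.17 (SE 0.24, edgeR adjusted p = 1.1e-13), or 8.99-fold. All 3 calls held under each of the 14 alternatives run in which PCDHB2 was tested. PCDHB2 was 62.0% of the beta sum in TC4-2A, 13.4% in TL4-2A and 50.9% in T-REx cells. An antisense gene, PCDHB1-AS1, overlaps 1797 of its 4098 exonic bases in Gencode v44, and it had 0 counts in all 9 libraries. Whether reads were counted by strand is not given in the sources used here, so reads of this pair may not be told apart.

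PCDHB5 (ENSG00000113209.9) gave 0.200, 0.190 and 0.107 CPM in TC4-2A and 0.182, 0.267 and 0.610 CPM in TL4-2A libraries, against 0.636, 0.649 and 0.730 CPM in T-REx libraries. T-REx libraries were the highest, at 12 to 14 counts each, against 2 to 4 per TC4-2A library and 3 to 10 per TL4-2A library. The log2 fold change was -1.96 in TC4-2A cells (SE 0.47, edgeR adjusted p = 0.0012) and -0.93 in TL4-2A cells (SE 0.41, edgeR adjusted p = 0.064), where it passed the threshold only without TL4-2A replicate 3. PCDHB13 (ENSG00000187372.11) gave 0.350, 0.237 and 0.269 CPM in TC4-2A and 0.848, 0.642 and 0.792 CPM in TL4-2A libraries, against 0.318, 0.0463 and 0.261 CPM in T-REx libraries. TL4-2A libraries stood above both other lines, with a log2 fold change of 1.87 against T-REx cells (SE 0.45, edgeR adjusted p = 8.7e-04). TC4-2A against TL4-2A cells gave -1.39 (SE 0.42, edgeR adjusted p = 0.0085), a call that was lost with DESeq2 (adjusted p = 0.079). PCDHB15 (ENSG00000113248.6), the third beta gene per kb in T-REx cells, was not tested, with 6 to 7 counts per TC4-2A, 7 to 13 per TL4-2A and 3 to 10 per T-REx library. The other 12 beta genes were below the filter as well, so for most of the cluster a difference was not detectable at this depth.

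In the gamma cluster the member of highest level in T-REx cells was also the one with the smallest p. PCDHGC3 (ENSG00000240184.7, from 141475947 to 141512977), a C-type gene known to be expressed widely outside neurons, gave 15.5, 18.1 and 15.4 CPM in TC4-2A and 25.1, 26.7 and 25.8 CPM in TL4-2A libraries, against 24.0, 21.1 and 24.8 CPM in T-REx libraries. Every TC4-2A library lay below every library of the other lines. Its log2 fold change was -0.51 in TC4-2A cells (SE 0.07, edgeR adjusted p = 3.1e-07), and TC4-2A against TL4-2A cells gave -0.66 (SE 0.07, edgeR adjusted p = 4.8e-10). In TL4-2A cells PCDHGC3 was called higher by a small margin, at 0.16 (SE 0.07, edgeR adjusted p = 0.049). That call was lost under 12 of 15 alternatives, among them every library left out except T-REx replicate 3, with adjusted p up to 0.35 (without T-REx replicate 2).

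PCDHGB5 (ENSG00000276547.2) gave 14.2, 14.0 and 14.7 CPM in TC4-2A and 16.8, 14.5 and 15.7 CPM in TL4-2A libraries, against 16.4, 15.5 and 17.8 CPM in T-REx libraries. The lines lay close together, and the log2 fold change of -0.21 in TC4-2A cells (SE 0.08, edgeR adjusted p = 0.031) was lost without T-REx replicate 1 (0.052), T-REx replicate 3 (0.18), TC4-2A replicate 1 (0.081) or TC4-2A replicate 2 (0.11) and with DESeq2 (0.13). In TL4-2A cells it was -0.08 (SE 0.08, edgeR adjusted p = 0.42). PCDHGB6 (ENSG00000253305.2), separated from PCDHGB5 by PCDHGA9, gave 4.10, 5.79 and 6.12 CPM in TC4-2A and 7.75, 8.50 and 7.98 CPM in TL4-2A libraries, against 6.89, 7.23 and 8.14 CPM in T-REx libraries. Its log2 fold change was -0.48 in TC4-2A cells (SE 0.12, edgeR adjusted p = 0.0031), with 0.058 as the adjusted p without TC4-2A replicate 1, the lowest library. TC4-2A against TL4-2A cells gave -0.60 (SE 0.13, edgeR adjusted p = 1.9e-04).

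The gamma genes called higher in TL4-2A against T-REx cells were PCDHGB1, PCDHGA4, PCDHGA5, PCDHGA6, PCDHGA7, PCDHGA11, PCDHGA12, PCDHGC3, PCDHGC4 and PCDHGC5. The calls of PCDHGA5 (0.051), PCDHGA7 (0.075) and PCDHGA12 (0.16) were lost without T-REx replicate 3, and those of PCDHGA5 (0.052) without TL4-2A replicate 3 and of PCDHGA12 (0.17) without TL4-2A replicate 1. With DESeq2 all 3 of these calls were lost too, at an adjusted p of 0.064 for PCDHGA5, 0.062 for PCDHGA7 and 0.10 for PCDHGA12. By subfamily 6 of 10 A-type, 1 of 6 B-type and 3 of 3 C-type gamma members tested were called higher. Over all genes 21.9% were called higher in this comparison. All 3 C-type calls were lost with DESeq2, at an adjusted p of 0.18 for PCDHGC3, 0.088 for PCDHGC4 and 0.061 for PCDHGC5. In TC4-2A against T-REx cells 0 of the 10 A-type members were called, against 28.8% of all genes. Their log2 fold changes were 6 positive and 4 negative. PCDHGB1 (ENSG00000254221.3) averaged 3.29 ± 0.205 CPM in TC4-2A and 5.25 ± 1.04 CPM in TL4-2A cells, against 3.15 ± 0.542 CPM in T-REx cells (SD, n = 3 each). Its log2 fold change was 0.74 in TL4-2A cells (SE 0.16, edgeR adjusted p = 2.2e-04) and 0.06 in TC4-2A cells (SE 0.17, edgeR adjusted p = 0.84). PCDHGA6 (ENSG00000253731.3) gave 1.40, 1.47 and 1.5 CPM in TC4-2A and 2.6, 3.58 and 2.86 CPM in TL4-2A libraries, against 2.17, 2.09 and 1.57 CPM in T-REx libraries. TL4-2A libraries were the highest and TC4-2A libraries the lowest, with -1.06 between TC4-2A and TL4-2A cells (SE 0.21, edgeR adjusted p = 7.5e-05). Its call in TL4-2A against T-REx cells, at 0.64 (edgeR adjusted p = 0.0069), was lost without T-REx replicate 3 (0.054) or TL4-2A replicate 2 (0.078).

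PCDHGA9 (ENSG00000261934.3) and PCDHGB7 (ENSG00000254122.3) were called between the lines with an insertion and not against T-REx cells. PCDHGA9 averaged 6.70 ± 0.041 CPM in TC4-2A and 8.33 ± 1.04 CPM in TL4-2A cells (SD, n = 3 each), a log2 difference of -0.31 (edgeR adjusted p = 0.027) that was lost without TC4-2A replicate 1 (0.059), TC4-2A replicate 2 (0.055), TC4-2A replicate 3 (0.057) or TL4-2A replicate 3 (0.20), without the expression filter (0.052) and with DESeq2 (0.11). PCDHGB7 averaged 3.36 ± 0.378 CPM in TC4-2A and 5.18 ± 0.550 CPM in TL4-2A cells (SD, n = 3 each), a difference of -0.62 (SE 0.15, edgeR adjusted p = 0.0012). The C-type genes PCDHGC4 (ENSG00000242419.6) and PCDHGC5 (ENSG00000240764.4) were low in all lines, with 12 to 26 and 21 to 43 counts per library. PCDHGC4 averaged 1.05 ± 0.418 CPM in TC4-2A and 1.42 ± 0.0983 CPM in TL4-2A cells, against 0.787 ± 0.0944 CPM in T-REx cells (SD, n = 3 each), with a log2 fold change of 0.84 in TL4-2A cells (SE 0.30, edgeR adjusted p = 0.021). PCDHGC5 averaged 1.25 ± 0.124 CPM in TC4-2A and 2.11 ± 0.500 CPM in TL4-2A cells, against 1.27 ± 0.179 CPM in T-REx cells (SD, n = 3 each), with 0.73 in TL4-2A cells (SE 0.24, edgeR adjusted p = 0.011). These calls were lost without T-REx replicate 3 (0.079) or TL4-2A replicate 3 (0.066) for PCDHGC4, and without T-REx replicate 2 (0.066) or TL4-2A replicate 1 (0.10) for PCDHGC5, and with DESeq2 for both (0.088 for PCDHGC4 and 0.061 for PCDHGC5). The remaining gamma members tested had mean levels of 0.269 (PCDHGA8, TC4-2A cells) to 9.33 CPM (PCDHGA11, TL4-2A cells).

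PCDHGB8P and PCDHGB9P, pseudogenes within the gamma cluster and not members, were tested too. PCDHGB8P had 1.71 ± 0.165 CPM in TC4-2A and 2.78 ± 0.354 CPM in TL4-2A cells, against 1.96 ± 0.202 CPM in T-REx cells (SD, n = 3 each), with a log2 fold change of 0.50 in TL4-2A cells (edgeR adjusted p = 0.031). PCDHGB9P had 1.56 ± 0.0927 CPM in TC4-2A and 2.19 ± 0.0937 CPM in TL4-2A cells, against 1.28 ± 0.144 CPM in T-REx cells (SD, n = 3 each), with 0.78 in TL4-2A cells (edgeR adjusted p = 0.0039). Both were thus called higher in TL4-2A cells, as were 10 of the 19 gamma members tested. Members of a cluster resemble each other in sequence. Of all stretches of 50 bases in a member's own exons 54.7% (PCDHB8) to 100% occur once in the whole locus. The median was 93.3% for alpha, 85.2% for beta and 94.3% for gamma members. PCDHA6, PCDHA7 and PCDHA8 had 72.0% to 74.6%, while PCDHB1 had 99.9%. Low values of members with a small share are therefore uncertain, and the effect on their counts was not tested.

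Genes that act on these promoters or on the proteins were counted from lists, each tested in the same fit. Of 29 regulators of promoter choice and chromatin, 9 were called higher and 5 lower in TC4-2A and 13 higher and 4 lower in TL4-2A against T-REx cells. The share called was 48.3% for TC4-2A, where it was 28.8% over all genes, and 58.6% for TL4-2A, where it was 44.3% over all genes. The cohesin subunit SMC3 averaged 221 ± 3.34 CPM in TC4-2A and 282 ± 23.4 CPM in TL4-2A cells, against 312 ± 5.66 CPM in T-REx cells (SD, n = 3 each), with log2 fold changes of -0.50 for TC4-2A (edgeR adjusted p = 5.5e-14) and -0.15 for TL4-2A cells (edgeR adjusted p = 9.6e-04). NIPBL, which loads cohesin, changed by -0.13 in TC4-2A (edgeR adjusted p = 9.5e-04) and -0.39 in TL4-2A cells (edgeR adjusted p = 3.0e-13). SMCHD1, a chromatin repressor that acts on these clusters in the mouse, changed by -0.39 in TC4-2A (edgeR adjusted p = 2.1e-13) and -0.28 in TL4-2A cells (edgeR adjusted p = 5.0e-10). These 3 genes were thus called lower in both lines, while most called genes of the list were higher. CTCF changed by 0.14 in TC4-2A (edgeR adjusted p = 8.5e-04) and by -0.17 in TL4-2A cells (edgeR adjusted p = 8.3e-05). The part of these genes in the protocadherin results was not tested.

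Of 19 cytoplasmic partners 1 was called higher and 4 lower in TC4-2A, and 6 higher and 3 lower in TL4-2A against T-REx cells. These shares of 26.3% for TC4-2A and 47.4% for TL4-2A were near the 28.8% and 44.3% of all genes. NCKAP1, a subunit of the actin-regulating WAVE complex, had a log2 fold change of 0.37 in TL4-2A cells (edgeR adjusted p = 3.2e-13) and was not called in TC4-2A cells (-0.05). ABI2, of the same complex, had 0.43 in TL4-2A cells (edgeR adjusted p = 6.0e-13) and was not called in TC4-2A cells (-0.08). MARCKS, a membrane-bound actin regulator, changed by -0.25 in TC4-2A (edgeR adjusted p = 2.3e-08) and -0.38 in TL4-2A cells (edgeR adjusted p = 3.0e-13). Of 7 proteases that cut protocadherins, 1 was higher and 1 lower in TC4-2A (28.6%, against 28.8% of all genes) and 3 higher and 1 lower in TL4-2A cells (57.1%, against 44.3% of all genes). ADAM10, which sheds the extracellular part, changed by -0.23 in TC4-2A (edgeR adjusted p = 4.7e-06) and -0.19 in TL4-2A cells (edgeR adjusted p = 1.0e-04). PSEN2, a gamma-secretase gene, had a value of 0.20 for TC4-2A (edgeR adjusted p = 0.047) and of 0.36 for TL4-2A cells (edgeR adjusted p = 2.0e-04) on the same scale. APH1B, another gamma-secretase gene, had 0.23 in TL4-2A cells (edgeR adjusted p = 0.0018) and was not called in TC4-2A cells (-0.06).

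Among 11 protocadherins outside the clusters 7 were tested, with 1 higher and 3 lower in TC4-2A and 3 higher and 3 lower in TL4-2A against T-REx cells. With so few genes this was 57.1% called for TC4-2A, against 28.8% of all genes, and 85.7% for TL4-2A, against 44.3%. PCDH19, a protocadherin of the delta family encoded on the X chromosome, averaged 3.73 ± 0.161 CPM in TC4-2A and 70.3 ± 2.13 CPM in TL4-2A cells, against 60.6 ± 1.07 CPM in T-REx cells (SD, n = 3 each), which gave log2 fold changes of -4.02 for TC4-2A (edgeR adjusted p = 1.4e-33) and 0.21 for TL4-2A cells (edgeR adjusted p = 1.7e-04). PCDH9, also of the delta family, changed by -0.10 for TC4-2A (edgeR adjusted p = 0.016) and by 0.41 for TL4-2A cells (edgeR adjusted p = 1.1e-13). PCDH7, of that family too, changed by -0.14 for TC4-2A (edgeR adjusted p = 1.9e-04) and by 0.31 for TL4-2A cells (edgeR adjusted p = 9.8e-12).

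The 38 protein-coding genes within 1 Mb of the outermost members or between the clusters were counted to show whether neighbours moved with the members. Of 33 tested, 4 were called higher and 4 lower in TC4-2A, and 9 higher and 8 lower in TL4-2A against T-REx cells. The share called was 24.2% for TC4-2A, against 28.8% of all genes, and 51.5% for TL4-2A, against 44.3% of all genes. Their median log2 fold change against T-REx cells was 0.02 for TC4-2A, where that of the 28 members was 0.07, and 0.05 for TL4-2A, where that of the members was 0.57. SLC25A2, between the beta and gamma clusters, was called higher in TL4-2A against T-REx cells, at 0.98 (SE 0.38, edgeR adjusted p = 0.033). It had 5 to 20 counts per library. TAF7, which lies there too, was not called in that comparison (-0.06). SPRY4, an inhibitor of receptor tyrosine kinase signalling, averaged 3.67 ± 0.332 CPM in TC4-2A and 3.46 ± 0.224 CPM in TL4-2A cells, against 9.25 ± 0.400 CPM in T-REx cells (SD, n = 3 each). It changed by -1.33 in TC4-2A (edgeR adjusted p = 2.3e-11) and -1.41 in TL4-2A cells (edgeR adjusted p = 7.6e-12). NDFIP1, an adaptor of ubiquitin ligases, changed by -0.23 in TC4-2A (edgeR adjusted p = 8.3e-06) and -0.32 in TL4-2A cells (edgeR adjusted p = 7.6e-09). HARS1, the histidyl-tRNA synthetase, had 0.22 in TL4-2A cells (edgeR adjusted p = 3.1e-06) and was not called in TC4-2A cells (0.07).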

How the data were processed

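Directional libraries of rRNA-depleted RNA were made, 3 for each of the lines. The authors mapped reads to GRCh38 with HISAT2 and deposited raw counts per gene of Gencode v33 from featureCounts. The versions of their tools and the options of featureCounts for strand and for shared exons were not stated in what was read here. DESeq2 tables that the authors deposited, made up of log2 fold changes and p-values, were not used. Of 60651 count lines 3 damaged ones were left out. Names, positions and exon lengths came from Gencode v44, which may differ from v33 for members with newer exons.

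The test was that of edgeR 4.0.16, run on the counts under R 4.3.3 (filterByExpr, TMM, glmQLFit and glmQLFTest with 1 term per line over 9 libraries, 2-sided, Benjamini-Hochberg over 19473 genes, called at an adjusted p under 0.05). TMM factors were 0.991 to 1.01. It was first tested on simulated data. Depth, 16561680 to 21491977 counts per library, sets the precision. Named in full were, per cluster, the 5 members with the smallest p and the 3 of highest level per kb in T-REx cells, the C-type members, and 3 genes per list and among flanking genes by smallest p. Members and lists were chosen with earlier results of these data known. PCDHGB8P, PCDHGB9P, CTCF, SLC25A2, TAF7 and members named outside this rule were picked once their values were known. Tried as well were RLE scaling, DESeq2 1.42.0, other filters, only the 2 lines compared, a replicate block and each library left out. Promoters were read from RefSeq with Python 3.11.15.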

Additional observations from a re-analysis of the deposited data

Results flagged for a closer look

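PCDHB2 was called in opposite directions in the 2 lines with an insertion, above T-REx cells in the TC4-2A line and below them in the TL4-2A line, and the difference between the 2 effects, tested as TC4-2A against TL4-2A cells, was 3.17 on the log2 scale (SE 0.24, edgeR adjusted p = 1.1e-13). All 3 TC4-2A libraries lay above and all 3 TL4-2A libraries lay below the T-REx libraries. PCDHGC3 was likewise called in both lines, below T-REx cells for TC4-2A and above them for TL4-2A, with a difference of -0.66 (SE 0.07, edgeR adjusted p = 4.8e-10), but its TL4-2A call was lost under 12 of 15 alternatives. Groups of 3 libraries were too small to look for single libraries that stand apart.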

How the results depend on the processing

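Counts of called members stayed within 1.5 times under the alternatives run, apart from 3 counts, which came from the filter of 10 counts and from DESeq2. With at least 10 counts in every library, which left 21 members to test, 5 were called in TC4-2A and 11 in TL4-2A against T-REx cells, in place of 9 and 17, and PCDHB2, PCDHB5 and the other low members were no longer tested. With DESeq2 11 members were called in TL4-2A against T-REx cells, and the cause of this lower count was not tested. Without 1 library at a time, 7 to 9 members were called in TC4-2A against T-REx, 13 to 18 in TL4-2A against T-REx and 14 to 18 in TC4-2A against TL4-2A cells, while calls over all genes ran from 4686 to 5674, from 7497 to 8816 and from 5979 to 6953. Of the members called, 6 of 9 in TC4-2A against T-REx, 9 of 17 in TL4-2A against T-REx and 12 of 17 in TC4-2A against TL4-2A cells kept their call under every alternative that tested them. Sign changes came up only when a library was left out, in 19 of 756 refits and for 10 results, of which 0 were called with all libraries. Those results ranged from -0.34 to 0.14 for PCDHA13 and from -0.28 to 0.44 for PCDHAC2 in TC4-2A against TL4-2A, from -0.40 to 0.27 for PCDHAC2 in TL4-2A against T-REx, and, in TC4-2A against T-REx, from -0.26 to 0.26 for PCDHAC2, -0.022 to 0.92 for PCDHB13, -0.13 to 0.43 for PCDHGA1, -0.067 to 0.16 for PCDHGB1, -0.33 to 0.14 for PCDHGB3, -0.22 to 0.47 for PCDHGA7 and -0.12 to 0.080 for PCDHGC5.

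Same-numbered libraries did not deviate together (correlations of -0.029 to 0.030), so no effect shared by number was seen. Whether libraries of the same number were handled together cannot be told from these correlations. With the replicate block 9, 16 and 18 members were called in the 3 comparisons, the change being PCDHGC3 lost in TL4-2A against T-REx cells (edgeR adjusted p = 0.070) and PCDHGB3 gained in TC4-2A against TL4-2A cells. The depth limits what can be said of 25 members that did not pass the filter.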

Other observations

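Members below the expression filter were looked at without it. PCDHB3 was called there between the lines with an insertion, with 2, 15 and 2 counts in TC4-2A and 1, 1 and 1 in TL4-2A libraries, a log2 difference of 2.33 (edgeR adjusted p = 0.030) that rests on TC4-2A replicate 2. PCDHGA3 had 0, 1 and 3 counts in TC4-2A and 2, 5 and 11 in TL4-2A libraries, a log2 difference of -2.26 (edgeR adjusted p = 0.022). PCDHB14 had 7, 11 and 15 counts in TC4-2A and 6, 5 and 2 in TL4-2A libraries, against 2, 7 and 5 in T-REx libraries, and was not called (edgeR adjusted p = 0.087 for TC4-2A against T-REx cells).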
